A study of Arabidopsis thaliana with 18 samples.

Results

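Enzymes that exchange membrane phospholipids for galactolipids and sulfolipid were followed in root and shoot of Arabidopsis thaliana (Col-0) under 3 phosphate supplies. The set was fixed by gene identity as 10 loci, namely MGD2, MGD3, DGD1, DGD2, SQD1, SQD2, NPC4, NPC5, PLDZ2 and PAH1. Of these, 9 have a row among the 38408 rows of the array, 1 row each. NPC5 (AT3G03540) was not paired with a row and was not analysed here. Seedlings were raised hydroponically for 5 days in sucrose medium, then held for 7 days without phosphate (P0), at 1.25 mM (P1.25, the control) or at 20 mM (P20). Root and shoot were taken separately, with 3 independent replicates for each of the 6 groups and 1 Affymetrix AraGene 1.0 ST array per replicate (18 arrays). All plants were Col-0, and by label the groups differed in phosphate supply and organ. The media differed further. At P0 potassium sulfate replaced the potassium phosphate, and P20 was reached by raising that potassium salt. Sulfate at P0 and potassium at P20 thus changed together with phosphate, and their part was not tested. Values are log2 intensities after robust multi-array averaging, and they are compared only within a gene, since probes of different genes differ in brightness.

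Plant cells store much of their phosphate in phospholipids. When phosphate runs short, phospholipids are broken down, and lipids that carry galactose or a sulfonated sugar in place of phosphate take their position in the membranes. Phospholipases of the C type (NPC4, NPC5) cut phospholipids to diacylglycerol directly, whereas phospholipase D (PLDZ2) makes phosphatidic acid, which the phosphohydrolase PAH1 turns into diacylglycerol. Diacylglycerol then receives a first galactose from MGD2 or MGD3 and a second from DGD1 or DGD2, or the sulfoquinovose head group, which SQD1 makes and SQD2 transfers.

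How the rows got their names limits what can be read from them. The annotation table of the array platform names none of the 9 members. Of the members, 8 are named in the 576 rows used from the study's table of all transcripts, which is ordered by the p of phosphate treatment averaged over the organs, and DGD1 is named in its table of root transcripts that differ at P0. A member therefore had a name because its row moved with phosphate. The changes at P0 are given below as a description, without p-values. The difference between root and shoot, and the difference of the P0 effect between them, did not as effects decide the naming of the 8 and were tested. A small p also comes from a small spread between replicates, and these tests divide by the same spread. Their p-values and counts of calls are therefore favoured by the naming and are not free of it. For DGD1 the interaction shares the root P0 contrast with its naming.

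The organs were as labelled. All 12 photosynthesis markers with a row were called higher in control shoot and all 8 root markers with a row higher in control root. At P0 these markers moved as well. In shoot, 11 of the 12 photosynthesis markers were called lower and 3 of the 8 root markers higher, CASP1, PER64 and THAD1. Of all rows, 7.62% were called lower and 6.12% higher in shoot. In root, 6 of the 8 root markers and 1 of the 12 photosynthesis markers were called lower (median log2 changes -1.27 and -0.47). Of all rows, 4.54% were called lower in root. The mean over the photosynthesis markers ranged from 7.12 to 7.16 on the P0 shoot arrays and from 8.24 to 9.16 on the P1.25 shoot arrays. The mean over the root markers ranged from 5.81 to 5.95 on the P0 shoot arrays and from 4.86 to 5.37 on the P1.25 shoot arrays. In root it ranged from 6.42 to 6.55 on the P0 arrays and from 7.41 to 7.77 on the P1.25 arrays. The study's tables, chosen or ordered by the change with phosphate, name 6 of these 8 root markers and 7 of the 12 photosynthesis markers. The 6 are those called lower in root, and they include the 3 called higher in shoot. The 7 were all called lower in shoot, and LHB1B1, called lower in root, is among them. Nothing is read from these calls. Of the markers named by the platform table, LHB1B2, RCA, LHCB4.2 and SBPASE were called lower in P0 shoot. PRK, EXPA7 and EXPA18 were not called at P0 in either organ. The part of the marker shifts in the results below was not tested. In whole organs a larger share of cells with a transcript and more of it per cell cannot be told apart. Array medians lay between 5.44 and 5.66. Replicate 3 stood apart in the 4 groups with phosphate, each time with 41.9% to 47.3% of the squared deviation in its group against at most 35.8% at P0, and calls that change without these 4 arrays are given both ways.

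**Figure D1:**
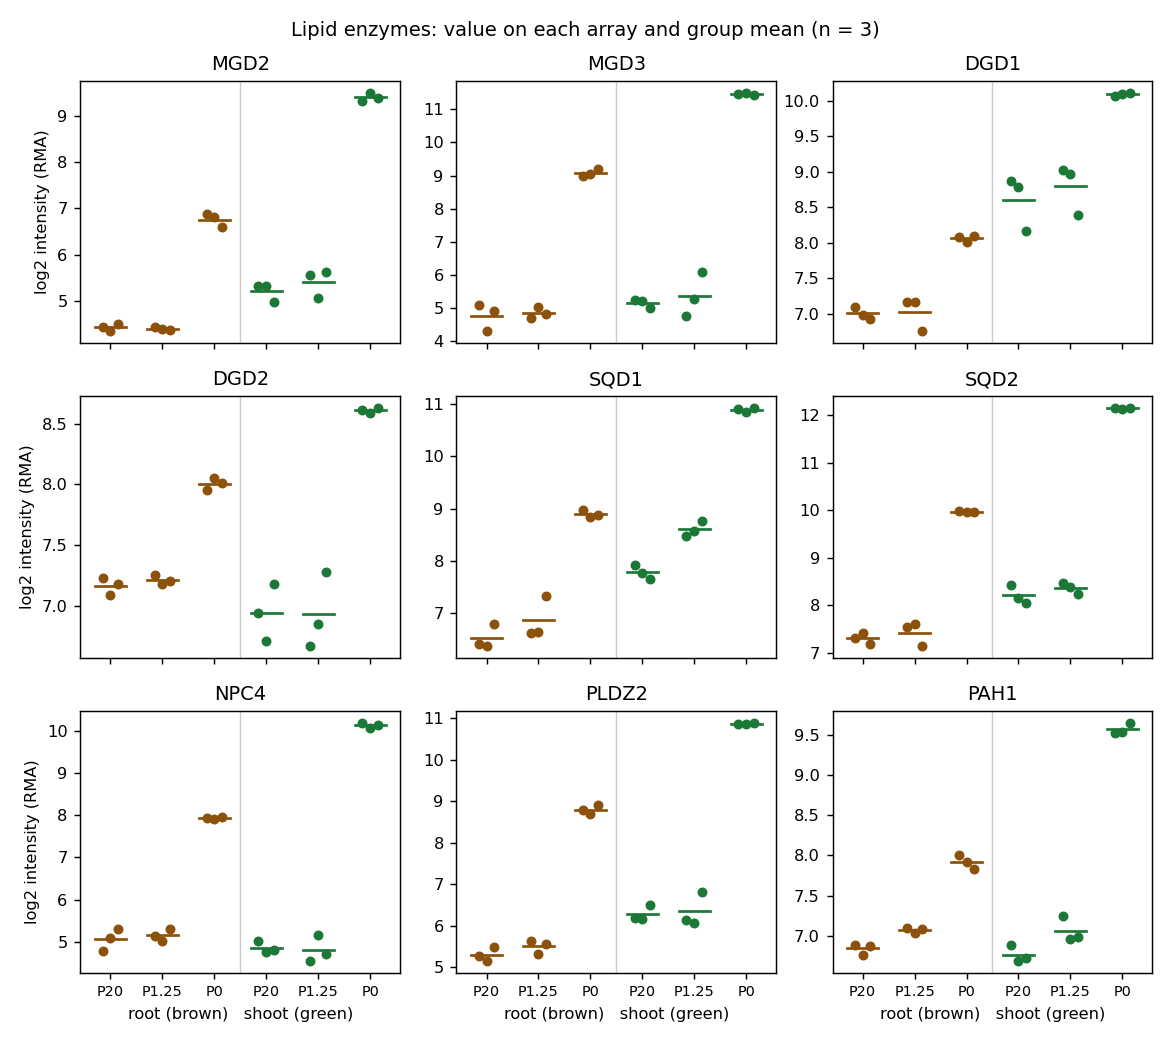
Log2 intensity (vertical axis, a separate scale in each panel) of the 9 enzymes on each of the 18 arrays, by phosphate supply in root (brown) and shoot (green). Points are arrays and lines are group means (n = 3). The P0 points lie above the P1.25 and P20 points of the same organ in every panel.

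The type B galactolipid synthases MGD2 and MGD3, which add the first galactose in the outer plastid envelope, were many times brighter at P0 in both organs. MGD3 (AT2G11810) had values of 4.71, 5.03 and 4.82 in P1.25 root and of 9.0, 9.05 and 9.19 in P0 root. In shoot it went from 4.78, 5.27 and 6.08 at P1.25 to 11.46, 11.49 and 11.43 at P0. These log2 changes of 4.23 ± 0.26 (SE) in root and 6.08 ± 0.26 in shoot, or 18.7-fold and 67.8-fold, were the largest of the set, and the shoot change was the 8th largest rise of all rows. Replicate 3 of P1.25 shoot lay above the other two, and all P0 arrays lay above all arrays with phosphate. MGD2 (AT5G20410) had 4.44, 4.39 and 4.37 in P1.25 root against 6.87, 6.81 and 6.59 in P0 root. In shoot it had 5.56, 5.07 and 5.63 at P1.25 and 9.31, 9.49 and 9.39 at P0. Its log2 changes of 2.36 ± 0.14 in root and 3.98 ± 0.14 in shoot corresponded to 5.12-fold and 15.8-fold.

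The digalactolipid synthases DGD1 and DGD2 had the smallest changes of the set in shoot. DGD1 (AT3G11670), which makes the bulk of the digalactolipid in fed plants, was at 7.16, 7.17 and 6.76 in P1.25 root and at 8.08, 8.01 and 8.10 in P0 root. In shoot it was at 9.02, 8.97 and 8.39 at P1.25 and at 10.07, 10.10 and 10.11 at P0. The log2 changes were 1.03 ± 0.19 in root and 1.30 ± 0.19 in shoot. The root change was just beyond 2-fold, and it was 0.90 without replicate 3 of P1.25 root and 0.95 with array weights, both short of it. DGD1 was the 1 member whose P0 root arrays stayed below its P1.25 shoot arrays. DGD2 (AT4G00550), the isoform tied to phosphate shortage, had 7.25, 7.18 and 7.20 in P1.25 root and 7.95, 8.05 and 8.01 in P0 root. In shoot the values were 6.67, 6.85 and 7.28 at P1.25 and 8.61, 8.59 and 8.63 at P0. Its log2 change was 0.79 ± 0.14 in root, short of 2-fold, and 1.68 ± 0.14 in shoot. The P1.25 arrays of the organs overlapped for DGD2, and the P0 arrays did not.

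Both steps of sulfolipid synthesis went up by more than 2-fold in each organ. SQD1 (AT4G33030), which forms the UDP-sulfoquinovose head group in the plastid, had 6.62, 6.63 and 7.33 in P1.25 root and 8.98, 8.83 and 8.87 in P0 root. In shoot it had 8.47, 8.57 and 8.76 at P1.25 and 10.90, 10.85 and 10.93 at P0. The log2 changes, 2.03 ± 0.17 in root and 2.29 ± 0.17 in shoot, corresponded to 4.10-fold and 4.90-fold. SQD2 (AT5G01220), the transferase of the last step, had 7.54, 7.60 and 7.15 in P1.25 root and 9.99, 9.96 and 9.97 in P0 root. In shoot it went from 8.47, 8.39 and 8.24 to 12.16, 12.13 and 12.16. Its log2 changes were 2.54 ± 0.13 in root and 3.78 ± 0.13 in shoot. The P0 arrays of SQD2 differed by no more than 0.03 within an organ.

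Among the enzymes that release diacylglycerol, the phospholipases NPC4 and PLDZ2 had larger log2 changes than the phosphohydrolase PAH1 in both organs. NPC4 (AT3G03530) had 5.14, 5.03 and 5.31 in P1.25 root and 7.93, 7.91 and 7.95 in P0 root. In shoot it had 4.55, 5.17 and 4.71 at P1.25 and 10.19, 10.07 and 10.13 at P0. It thus passed from a level in fed shoot that overlapped fed root to one far above starved root, with log2 changes of 2.77 ± 0.16 in root and 5.32 ± 0.16 in shoot (6.83-fold and 40.1-fold). The fed group means of NPC4 (4.81 to 5.16), MGD3 (4.78 to 5.38) and MGD2 (4.40 to 5.42) lay below the medians of their arrays. So did those of PLDZ2 in root (5.30 and 5.50). How far background signal narrows their changes or makes their organs overlap was not tested. NPC5 is the next gene along the chromosome and encodes a close relative, and whether the NPC4 row also takes signal from it was not tested. PLDZ2 (AT3G05630), a phospholipase D of the zeta class, had 5.63, 5.31 and 5.56 in P1.25 root and 8.78, 8.68 and 8.91 in P0 root. In shoot it had 6.14, 6.07 and 6.82 at P1.25 and 10.86, 10.87 and 10.89 at P0. Its log2 changes were 3.29 ± 0.18 in root and 4.53 ± 0.18 in shoot. PAH1 (AT3G09560) had nearly the same values in both fed organs, with 7.10, 7.04 and 7.09 in P1.25 root and 7.25, 6.96 and 6.98 in P1.25 shoot. At P0 it had 8.00, 7.92 and 7.83 in root and 9.52, 9.54 and 9.65 in shoot. The log2 change of PAH1 was 0.84 ± 0.10 in root, short of 2-fold, and 2.5 ± 0.10 in shoot (5.67-fold).

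**Figure D2:**
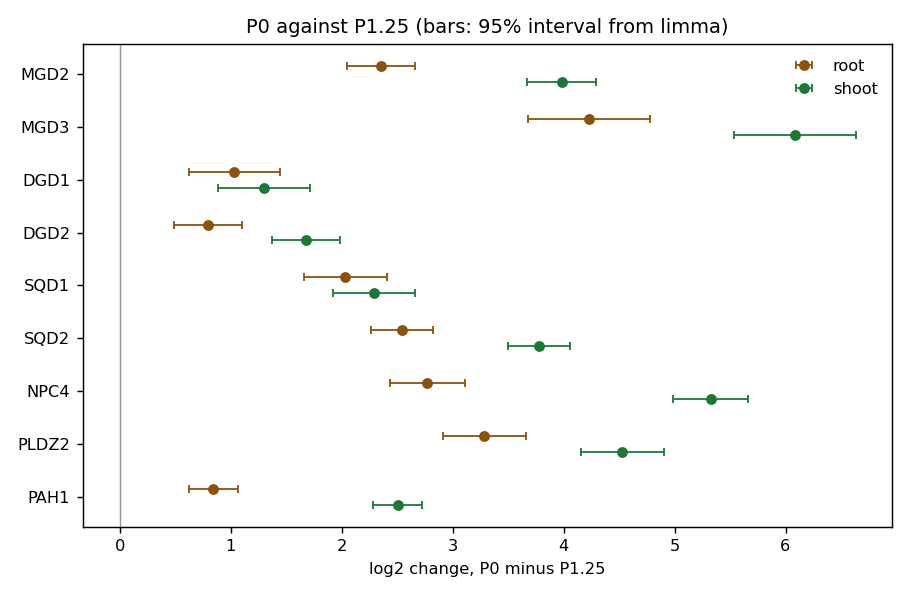
Log2 change from P1.25 to P0 (horizontal axis) for each enzyme in root (brown) and shoot (green), with 95% intervals from the limma fit over 18 arrays. MGD3 and NPC4 in shoot lie farthest to the right (6.08 and 5.32), and DGD2 and PAH1 in root lie nearest to 0 (0.79 and 0.84).

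Counted together, 7 of the 9 members were past an adjusted p of 0.1 and 2-fold in P0 root, where 4.69% of all rows were called higher, and 9 of 9 in P0 shoot, where 6.12% were. The P0 and P1.25 arrays did not overlap for any of the 9 in either organ, with P0 higher (15.5% of all rows in root and 19.2% in shoot). The median log2 change of the members was 2.36 in root and 3.78 in shoot, beside -0.09 and -0.11 over all rows. Nothing is read from these counts, because the naming of the rows rests on the same changes. Without replicate 3 of P1.25 root, 6 members were called in root, DGD1 being lost.

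The change at P0 was larger in shoot than in root for most of these enzymes. The difference of the P0 effect, shoot minus root, was above 0 for all 9 members and was called for 7 by the interaction term of limma at an adjusted p under 0.1, where 8.98% of all rows were called in this direction. Among the 851 rows called higher at P0 in both organs, that share was 13.5%. Of the 7 members in that group, 5 were called. The members were named in part for a small spread between replicates, which favours such calls. The widest difference was that of NPC4 (2.55 ± 0.22 on the log2 scale, adjusted p = 1.54e-05), followed by MGD3 (1.86 ± 0.36, adjusted p = 0.00434), PAH1 (1.66 ± 0.15, adjusted p = 1.54e-05) and MGD2 (1.63 ± 0.20, adjusted p = 0.000217). PLDZ2 (1.24 ± 0.25), SQD2 (1.24 ± 0.19) and DGD2 (0.88 ± 0.20) were called too. DGD1 and SQD1 were not called. Their differences were 0.27 (95% interval -0.32 to 0.85, adjusted p = 0.597) and 0.26 (-0.27 to 0.79, adjusted p = 0.563). Leaving out 1 array moved them from 0.06 (without replicate 3 of P1.25 shoot) to 0.40 (without replicate 3 of P1.25 root) for DGD1 and from 0.03 (without replicate 3 of P1.25 root) to 0.38 (without replicate 1 of P1.25 root) for SQD1, none of them a call. The same 7 members were called in each of the fits that left out 1 array. Fed means of NPC4, MGD3 and MGD2 in both organs, and of PLDZ2 in root, lay below the medians of their arrays. The part of background signal in their differences was not tested. The interaction was also called upward for 7 of the 8 root markers (median 1.63) and downward for 3 of the 12 photosynthesis markers. Of all rows, 8.11% were called downward. Most of these markers were named by the study's tables, and their part in the members' differences was not tested.

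The level in shoot relative to root differed from gene to gene in the control plants. At P1.25, 5 members were called higher in shoot, where 17% of all rows were. These were DGD1 (log2 difference, shoot minus root, 1.76 ± 0.19, adjusted p = 3.84e-06), SQD1 (1.74 ± 0.17, adjusted p = 1.48e-06), MGD2 (1.02 ± 0.14), SQD2 (0.94 ± 0.13) and PLDZ2 (0.84 ± 0.18, adjusted p = 0.00147). The 4 others were not called. MGD3 differed by 0.52 ± 0.26 (adjusted p = 0.139), PAH1 by -0.01 ± 0.10, DGD2 by -0.28 ± 0.14 and NPC4 by -0.35 ± 0.16 (adjusted p = 0.105 from limma). Of these, 3 moved with single control arrays, in both directions. Without replicate 1, 2 or 3 of P1.25 shoot, MGD3 differed by 0.82 (a call, adjusted p = 0.0174 from limma), 0.58 and 0.17. DGD2 differed by -0.14, -0.23 and -0.45 in the same fits, the last a call (adjusted p = 0.0119 from limma). NPC4 differed by -0.22, -0.53 and -0.30, of which the second was a call (adjusted p = 0.0133 from limma), and it was also called with array weights, with identical rows counted once and without the lowest rows (adjusted p from 0.0804 to 0.0974). With replicate 3 dropped from the 4 groups with phosphate, DGD2 was called lower in shoot (-0.46, adjusted p = 0.00611 from limma), while MGD3 (0.15) and NPC4 (-0.23) were not called. DGD2 was called lower with array weights too (-0.40, adjusted p = 0.0116).

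At P0, a comparison added after the values were seen, all 9 members were called higher in shoot than in root, as were 15.1% of all rows, and their arrays did not overlap between the organs (21.8% of all rows with shoot higher). The log2 difference lay between 2.00 and 2.64 for 7 of them, namely SQD1 (2.00), DGD1 (2.03), PLDZ2 (2.09), SQD2 (2.18), NPC4 (2.2), MGD3 (2.38) and MGD2 (2.64), about 4-fold to 6.25-fold. PAH1 (1.65) and DGD2 (0.61, adjusted p = 0.00553) stood below them. The difference at P1.25 and the interaction share the control arrays, so their order over the members is not read as a relation. Side by side, the organ difference at P1.25 and the interaction were 1.76 and 0.27 for DGD1, 1.74 and 0.26 for SQD1, and 1.02 and 1.63 for MGD2. They were 0.94 and 1.24 for SQD2, 0.84 and 1.24 for PLDZ2, and 0.52 and 1.86 for MGD3. For PAH1 they were -0.01 and 1.66, for DGD2 -0.28 and 0.88, and for NPC4 -0.35 and 2.55.

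**Figure D3:**
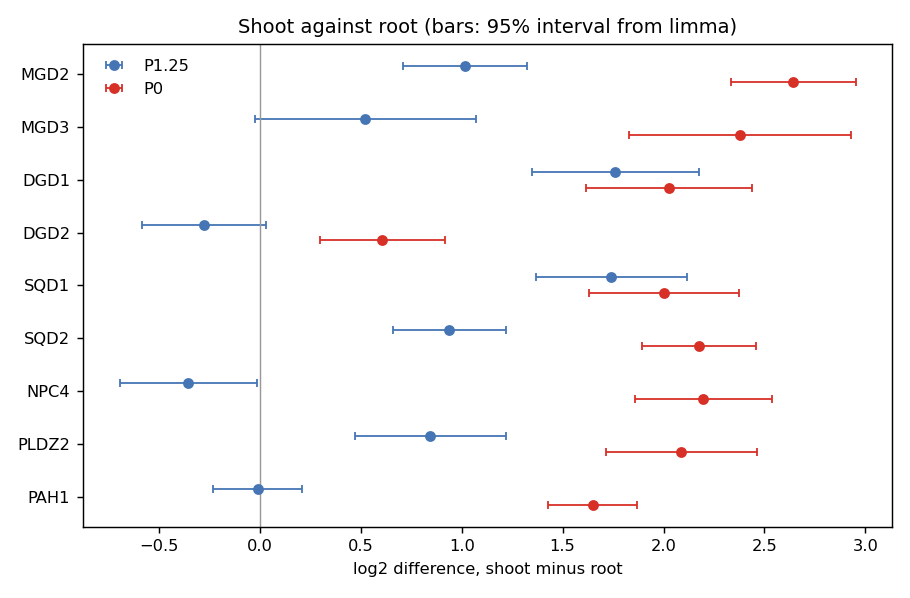
Log2 difference between shoot and root (horizontal axis, shoot minus root) for each enzyme at P1.25 (blue) and P0 (red), with 95% intervals from the limma fit. The blue points spread from -0.35 to 1.76, and 7 of the red points lie between 2.00 and 2.64.

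With excess phosphate, 0 of 9 members passed the threshold in root, where 0.0469% of all rows were called, and none in shoot, where 0.0365% were, by limma with or without moderation. At an unadjusted p under 0.05 there was 1 in root (PAH1) and there were 2 in shoot (SQD1 and PAH1). The means at P20 lay under those at P1.25 for 8 of 9 members in root and 7 of 9 in shoot, with median log2 changes of -0.10 and -0.19 beside 0.01 and 0.00 over all rows. For the 7 members other than SQD1 and PAH1 the log2 changes lay between -0.20 and 0.04 in root and between -0.22 and 0.05 in shoot. The 95% interval of MGD3 in shoot ran from -0.76 to 0.33, and each of the 7 had an upper bound below its own change at P0.

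SQD1 was the exception in shoot. Its 3 P20 arrays (7.92, 7.77 and 7.66) lay below all 3 at P1.25 (8.47, 8.57 and 8.76), a log2 change of -0.82 ± 0.17 with an adjusted p of 0.201 from limma, the row standing 59 in the order of p over all rows. With replicate 3 left out of all groups that had phosphate, the change was -0.67 with an adjusted p of 0.00602, a call, and 1.62% of all rows were called lower in that fit. With array weights it was called as well (adjusted p = 0.0677 from limma), in a fit with 405 of the 38408 rows called in either direction. Over all alternatives the adjusted p of this change ran from 0.00602 to 0.341. In root SQD1 had 6.40, 6.37 and 6.79 at P20, which overlaps P1.25, with a log2 change of -0.34 ± 0.17 (adjusted p = 0.883 from limma). That change was -0.11 without replicate 3 of P1.25 root. The P20 effect of SQD1 in shoot minus that in root was -0.48 ± 0.25 (adjusted p = 0.998), and no member was called for this difference, where 0.0104% of all rows were. None of the 9 had an unadjusted p under 0.05 for it.

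PAH1 also had P20 arrays below all P1.25 arrays, in both organs. In root its P20 values were 6.89, 6.76 and 6.88 (log2 change -0.23 ± 0.10, adjusted p = 0.874), and in shoot 6.89, 6.69 and 6.72 (-0.30 ± 0.10, adjusted p = 0.424 from limma). Groups that separate downward in this way made up 4.83% of all rows in root and 5.51% in shoot, against 1 and 2 of the 9 members. Neither change of PAH1 was called in any alternative.

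**Figure D4:**
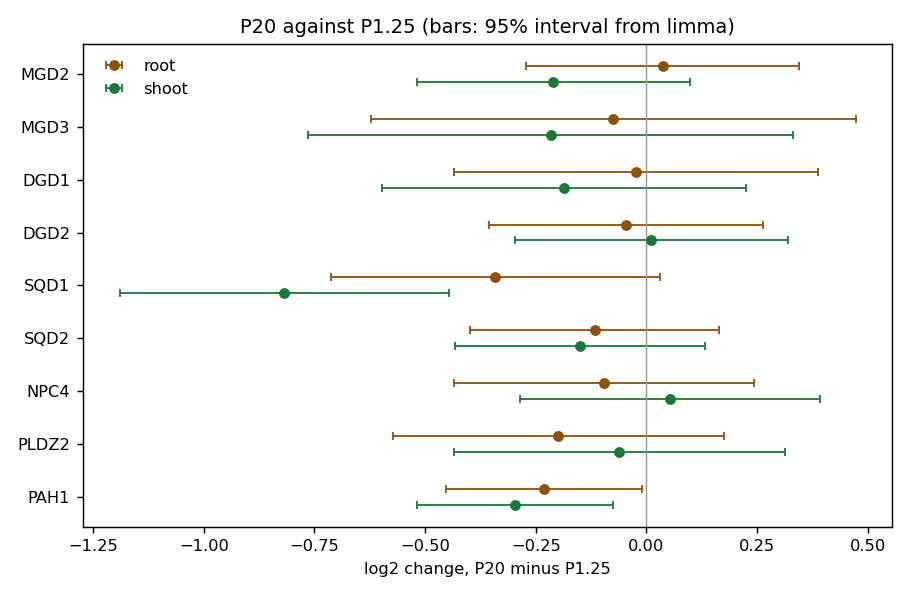
Log2 change from P1.25 to P20 (horizontal axis) for each enzyme in root (brown) and shoot (green), with 95% intervals from the limma fit, not adjusted for the number of rows. SQD1 in shoot (-0.82) lies apart from the others, and the intervals of PAH1 in both organs and of SQD1 in shoot are those that leave out 0.

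The order of the 6 group means was alike for most members. P0 shoot was the highest group in all 9 and P0 root the next in 8, the exception being DGD1, whose P0 root mean (8.06) came below its means in P20 and P1.25 shoot. P20 and P1.25 of the same organ were neighbours whose arrays overlapped in all members but SQD1 in shoot and PAH1 in both organs. For MGD3, DGD2 and NPC4 the 4 fed groups formed a run in which each group overlapped the next. For MGD2, DGD1, SQD1, SQD2 and PLDZ2 the fed shoot groups lay above the fed root groups without overlap, which at P1.25 held for 18.5% of all rows.

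Over the 18 arrays the members followed nearly 1 profile, with DGD1 the least alike. The mean of the members' z-scores correlated with single members at r of 0.995 for MGD2 and SQD2, 0.992 for PLDZ2 and 0.799 for DGD1. The nearest pairs were MGD2 with SQD2 (r = 0.992) and MGD3 with PLDZ2 (r = 0.988), and the lowest r was 0.506 between DGD1 and DGD2. All these correlations are descriptions across arrays of 6 shared groups. Each member is itself part of the mean profile. The naming of 8 members for a change with phosphate over both organs favours a shared profile. DGD1 was named from another table. Nothing is read from the likeness of the members. Within groups the correlations fell on both sides of 0, with a median r of -0.015 over the 36 pairs after group means were removed (lowest -0.759, highest 0.798), 17 pairs being above 0. The replicates of the members were closest at P0, with a median SD of 0.03 in P0 shoot and 0.08 in P0 root against 0.32 and 0.16 at P1.25. The SD over all rows fell less, with medians of 0.15 and 0.17 at P0 and 0.26 and 0.21 at P1.25. The members were named in part for a small spread and were brighter at P0. The part of either in this contrast with all rows was not tested. DGD1 and SQD2 had their lowest value on the third array in all 4 groups fed with phosphate.

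Outside the set, the rows with 1 gene that most resembled the mean profile over the 18 arrays were FMN/FHY (r = 0.992), a flavin kinase and hydrolase, AT5G57610 (0.990), SERAT2;2 (0.989), a serine acetyltransferase of cysteine synthesis, the transcription factor MYB62 (0.989) and AT5G20790 (0.986). AT5G57610 and AT5G20790 are named by the platform table and the other 3 by the study's tables. AT5G20790 had log2 changes at P0 of 3.83 in root and 5.21 in shoot. SERAT2;2 had 0.85 and 1.91, so that a like profile covered P0 effects of quite different size.

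Of 47 further genes of galactolipid, sulfolipid, phospholipid and phosphatidic acid metabolism, 5 have a named row and 42 were not analysed here, among them MGD1 and all other listed phospholipases C and D. At P0, 2 of the 5 were called higher in root, as were 4.69% of all rows, and 4 in shoot, as were 6.12%, and none was called lower. Nothing is read from UGP3 and LPP1 in these counts, since tables chosen or ordered by the change with phosphate gave them their names. UGP3, the plastid pyrophosphorylase that feeds SQD1, and LPP1, a lipid phosphate phosphatase, had log2 changes of 1.74 and 1.50 in root and of 2.23 and 2.09 in shoot. UGP3 had a log2 difference of 1.90 ± 0.19 between shoot and root at P1.25 (adjusted p = 1.22e-06), and its interaction was not called (0.49 ± 0.26, adjusted p = 0.269 from limma). The other 3 are named by the platform table, independently of any change in these arrays. CCT1, the regulatory enzyme of phosphatidylcholine synthesis, rose in P0 shoot from a range of 8.30 to 8.43 to one of 9.63 to 9.72 (log2 change 1.31 ± 0.11, adjusted p = 8.52e-07), while in root it differed by 0.10 ± 0.11 (adjusted p = 0.562). AAPT2, an aminoalcohol phosphotransferase that makes phosphatidylcholine and phosphatidylethanolamine, rose at P0 by 1.06 ± 0.13 in shoot (adjusted p = 3.27e-05), and its root change was -0.25 ± 0.13 (adjusted p = 0.198). The interaction was called for both, CCT1 at 1.21 ± 0.15 (adjusted p = 0.000205) and AAPT2 at 1.31 ± 0.18 (adjusted p = 0.000449 from limma). In control plants both were lower in shoot than in root, by log2 differences of -0.46 ± 0.11 for CCT1 and -1.34 ± 0.13 for AAPT2 (adjusted p = 0.00344 and 9.64e-07 from limma). TGD5, a protein of lipid import into the plastid, was not called at P0, with log2 changes of 0.22 ± 0.12 in root (adjusted p = 0.214) and of 0.01 ± 0.12 in shoot (adjusted p = 0.971 from limma). None of the 5 was called at P20 in either organ by limma.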

How the data were processed

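The authors normalized feature intensities of 18 AraGene 1.0 ST arrays at gene level by RMA in Partek Genomics Suite 6.6 and deposited log2 values, 1 column per array; the genome build is not given in the sources used here. The deposited log2 values entered the fit without further scaling (38408 rows). Of the rows, 5529 repeat the values of an earlier row, no member's row among them. Genes were assigned to rows from the platform table (16722 rows with 1 gene) and from supplementary tables of the study, in part (another 1119). RefSeq's table for TAIR10.1 gave locus names. The supplementary tables also hold the authors' fold changes and p-values, which were not used.

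Group means (6) were estimated row by row with limma 3.58.1 in R 4.3.3 (2.43 prior and 12 residual degrees of freedom), and p-values were adjusted by Benjamini-Hochberg over all rows. Following the methods, an adjusted p under 0.1 was a call, with more than 2-fold required for P0, and any fold was taken for P20, interactions and differences between organs. The study's 2-way model corresponds to the fit without moderation. An exact test of 3 arrays against 3 cannot go below a two-sided p of 0.1, so none is given. The number of arrays limits the precision. The fit was tested on simulated data.

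Replicate numbers were taken to pair groups where all 3 same-numbered pairs had deviations correlated above 0.1. This held for P20 with P1.25 in shoot (0.136, 0.130 and 0.291), not in root (0.077, 0.127 and 0.225), for P0 or between organs. Described are all members with a row, up to 4 called genes of the wider lists per comparison, the 5 rows nearest to the mean profile and markers by list. Members, lists and alternatives were chosen with earlier results of these data known. Alternatives covered the error model, array weights, the arrays in the fit, a replicate block, the rows tested, the scaling and the thresholds. Figures were drawn with matplotlib 3.10.9 in Python 3.11.15. No sequences were given for these genes, and none is printed.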

Additional observations from a re-analysis of the deposited data

Results flagged for a closer look

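The effect of starvation differed between the organs by the interaction term of limma for 7 of the 9 enzymes, each with the larger log2 change in shoot. The differences, shoot minus root on the log2 scale, were 1.63 for MGD2, 1.86 for MGD3, 0.88 for DGD2, 1.24 for SQD2, 2.55 for NPC4, 1.24 for PLDZ2 and 1.66 for PAH1. Over all alternatives they stayed above 0 and called for these genes, except that DGD2 fell short where more than 2-fold was also required. Of all rows, 8.98% were called in this direction, and 13.5% of the 851 rows called higher at P0 in both organs. Naming in part for a small spread between replicates favours such calls. Of the 8 root markers, 7 were called in the same direction. The parts of these markers and of background signal in the differences were not tested.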

How the results depend on the processing

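Counts of called members kept within 1.5 times the main count in all alternatives but 3. At P20 in shoot 1 member, SQD1, was called with array weights, against 0. In that fit 405 rows were called in either direction, against 14 in the main fit. Likewise 1, SQD1, was called when replicate 3 was dropped from the 4 groups with phosphate, where 1190 rows (3.1%) were. Between the organs at P1.25, 3 members were called where more than 2-fold was required, against 5. There 6614 rows were called, against 15081. Leaving out 1 array at a time gave 6 to 7 members in P0 root, 9 in P0 shoot and 7 for the interaction. It gave 5 to 6 between organs at P1.25, 9 between organs at P0, and 0 at P20 in either organ. The share of all rows called varied between fits as well. In the main fit it was, in either direction, 9.23% in P0 root, 13.7% in P0 shoot and 17.1% for the interaction. Between organs it was 39.3% at P1.25 and 33% at P0. For the interaction it was 29.9% with replicate 3 dropped from the 4 groups with phosphate. With the replicate block 7 members were called in P0 root, 9 in P0 shoot, 7 for the interaction and 0 at P20, so the pairing changed no call. Nothing is read from the counts in P0 root and P0 shoot in any fit, because the naming of the rows rests on the same changes.

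Changes that the main fit put near 0 turned sign in some settings; the cause was not tested, and no such value was called. With replicate 3 dropped from these 4 groups, the log2 change at P20 was -0.01 for MGD2 in root, and 0.00 for MGD2, 0.21 for MGD3 and 0.08 for PLDZ2 in shoot, and the organ difference of PAH1 at P1.25 was 0.04. With array weights MGD3 (0.13) and PLDZ2 (0.01) in P20 shoot and the organ difference of PAH1 (0.06) turned. Centring on the array median gave -0.02 for MGD2 in P20 root, and -0.05 for DGD2 and -0.01 for NPC4 in P20 shoot, and quantile normalization gave -0.03 for DGD2 in P20 shoot. Leaving out 1 array moved P20 changes in root from -0.16 to 0.05 for DGD1, -0.24 to 0.15 for MGD3 and -0.21 to 0.04 for NPC4. In shoot they moved from -0.39 to 0.04 for DGD1, -0.12 to 0.19 for DGD2, -0.51 to 0.14 for MGD3, -0.08 to 0.23 for NPC4 and -0.20 to 0.18 for PLDZ2, and the organ difference of PAH1 at P1.25 from -0.11 to 0.04.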
